A study of Arabidopsis thaliana with 6 samples.

Results

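Phosphatidylcholine exchange was followed through 5 genes of Arabidopsis thaliana, chosen by their locus identifiers among the 32678 gene models in the table. They are ROD1 (AT3G15820), LPCAT1 (AT1G12640, named LPLAT1 in the table), LPCAT2 (AT1G63050, named LPLAT2), AAPT1 (AT1G13560) and AAPT2 (AT3G25585). All 5 had enough reads to be tested. RNA was sequenced from 3 libraries of non-green seeds, labelled as yellow seeds of genotype Atchlsyn1-1, and from 3 libraries of green seeds, labelled Atchlsyn1-1/CHLSYN. Both kinds of seed segregate within siliques of a mutant of chlorophyll synthase, which makes chlorophyll. The sample titles use the word photosynthetic for both, as green and as non-green photosynthetic seeds. The capacity of either kind for photosynthesis was not measured here. Both kinds of seed came from plants grown at 22 °C with 16 h of light and 8 h of dark. The light level was 120 µE per square metre per second for all 6 libraries. Each library held 16438639 to 16745514 counts. The series title names the contribution of photosynthetic organs to seed oil as its question. Neither the age of the seeds nor the kind of mutation is given by the labels, and nothing says that libraries came from separate plants. P-values therefore measure the spread between these libraries, which may be technical.

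Developing seeds store oil as triacylglycerol, and much of its fatty acid passes through phosphatidylcholine (PC), the membrane lipid on which oleate is desaturated to linoleate and linolenate. Acyl chains reach PC along several routes, each served by enzymes studied here. The LPCAT enzymes acylate lysophosphatidylcholine with acyl-CoA and can run in reverse, so that acyl groups enter and leave PC. The AAPT enzymes join diacylglycerol to an activated choline or ethanolamine head group, the last step of PC and phosphatidylethanolamine synthesis. ROD1, also called PDCT, moves the phosphocholine head group between PC and diacylglycerol, and rod1 seed oil has fewer polyunsaturated chains. LPCAT1 and LPCAT2, and likewise AAPT1 and AAPT2, are pairs of related copies.

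Because the 2 copies of each pair are alike, their coding sequences were first compared in the TAIR10.1 genome of RefSeq. The longest coding sequences of AAPT2 and AAPT1 were 83.3% identical over a global alignment, and those of LPCAT2 and LPCAT1 83.8%. The longest identical coding run of each pair, of 36 bases for AAPT and 35 for LPCAT, is shown with 30 bases on either side. These stretches are written 5′ to 3′ on the coding strand. Capitals mark the bases at which the copies differ, 10 in the AAPT stretch and 6 in the LPCAT stretch.
AAPT2: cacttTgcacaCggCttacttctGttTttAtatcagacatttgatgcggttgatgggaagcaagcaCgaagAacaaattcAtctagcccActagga
AAPT1: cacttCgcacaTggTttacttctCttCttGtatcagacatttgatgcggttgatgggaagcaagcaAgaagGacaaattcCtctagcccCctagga
LPCAT2: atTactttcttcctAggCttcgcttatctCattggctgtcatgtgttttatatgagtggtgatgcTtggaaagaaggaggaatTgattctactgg
LPCAT1: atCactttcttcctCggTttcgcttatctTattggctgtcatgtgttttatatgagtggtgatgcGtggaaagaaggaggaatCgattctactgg
The AAPT stretch is coding bases 241 to 336 of both genes, joined from 2 exons, at chr3:9296375-9296571 on the plus strand for AAPT2 and chr1:4640906-4641104 on the minus strand for AAPT1. The LPCAT stretch is joined from 3 exons, at chr1:23377634-23377911 for LPCAT2 and chr1:4305090-4305408 for LPCAT1, both on the minus strand. No window of 50 bases from the annotated transcripts of any of the 5 genes occurred unchanged elsewhere in the genome. Windows across an exon join were sought in unspliced sequence, where a copy split by an intron at that point cannot match. The identical coding runs of 36 and 35 bases were found in joined exons and are shorter than 50 bases. Read length and the handling of reads that match more than 1 place are not stated, and any exchange of reads between copies was not tested.

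Non-green seeds held more transcript of ROD1 and LPCAT2 and less of LPCAT1 and AAPT2, and AAPT1 was not called. ROD1 had the largest change of the 5, 1.95-fold. Within the LPCAT pair the copies went opposite ways, and within the AAPT pair the more abundant copy alone passed the test. Of the 5 genes 4 were called by edgeR's quasi-likelihood test at an adjusted p under 0.05, 2 higher and 2 lower, where 26.6% of the 17239 genes tested were called, 14.2% higher and 12.5% lower. The same 4 of 5 were called with DESeq2, total-count scaling, no filter on low counts, a replicate block and limma-voom, where 21.3, 26.9, 20, 26.9 and 26% of all genes tested were called. Higher genes made up 53.2% of all calls, and 70.5% when libraries were scaled by total counts alone. The median absolute log2 fold change was 0.57 over the 5 genes and 0.19 over all genes tested.

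**Figure D1:**
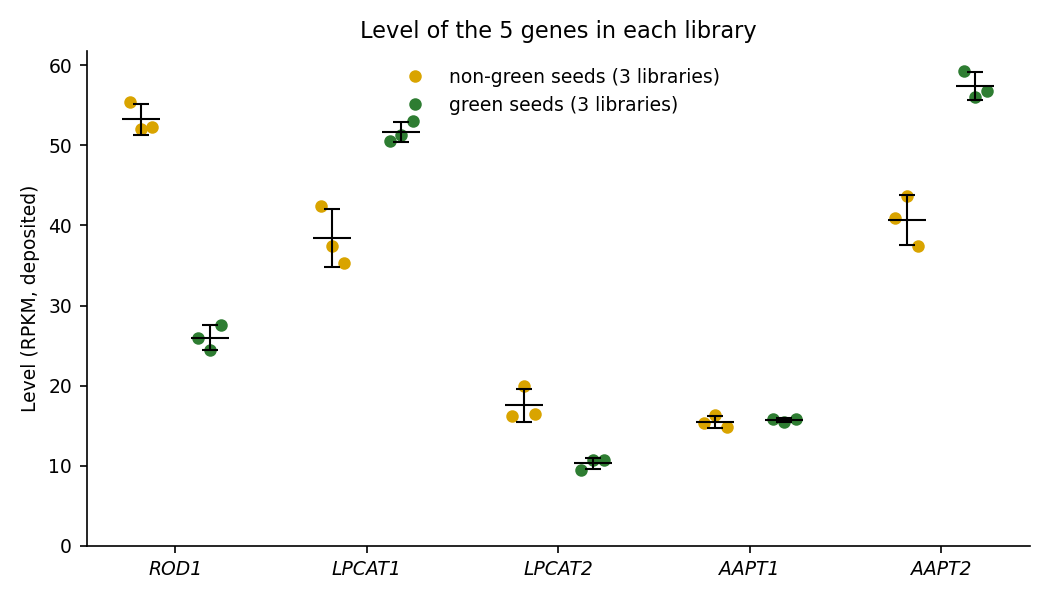
Level of each gene in RPKM (counts scaled to gene length and library size, deposited by the authors) in every library; points are libraries, the wide bar is the mean and the error bar the SD over 3 libraries. ROD1 and LPCAT2 lie higher in non-green seeds, LPCAT1 and AAPT2 lower, and the AAPT1 points overlap.

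ROD1 lies on chromosome 3 at chr3:5350814-5353752, on the plus strand, with 3 annotated exons. It had 1121, 1044 and 1049 counts in the non-green libraries, against 515, 491 and 556 in the green ones. All non-green libraries lay above all green ones, and the spread within each group was small beside the gap. In CPM, counts scaled to library size with TMM factors, ROD1 averaged 62.7 ± 1.85 CPM in non-green and 32.2 ± 1.65 CPM in green seeds (SD, n = 3 each). The log2 fold change was 0.96 ± 0.06 (SE, edgeR adjusted p = 1.83e-23), with a 95% interval of 0.84 to 1.09. Of the 2444 genes called higher, 449 (18.4%) rose more than ROD1 did.

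Per length, ROD1 went up the order of the 5 genes. In non-green seeds it was the highest, at 53.2 ± 1.93 RPKM (SD, n = 3), above AAPT2 at 40.7 ± 3.11, LPCAT1 at 38.4 ± 3.67, LPCAT2 at 17.5 ± 2.10 and AAPT1 at 15.5 ± 0.743 RPKM. Libraries of the neighbours AAPT2 and LPCAT1 overlapped in this order, as did those of LPCAT2 and AAPT1. In green seeds ROD1 was the third, at 26.0 ± 1.57 RPKM, below AAPT2 at 57.4 ± 1.72 and LPCAT1 at 51.6 ± 1.25, and above AAPT1 at 15.7 ± 0.236 and LPCAT2 at 10.3 ± 0.664 RPKM. No neighbours in that order overlapped.

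The 250 bases before the annotated start of ROD1, chr3:5350564-5350813 on the plus strand, are shown because this gene changed most. Capitals mark the only match to the motifs searched, an RY element.
ROD1: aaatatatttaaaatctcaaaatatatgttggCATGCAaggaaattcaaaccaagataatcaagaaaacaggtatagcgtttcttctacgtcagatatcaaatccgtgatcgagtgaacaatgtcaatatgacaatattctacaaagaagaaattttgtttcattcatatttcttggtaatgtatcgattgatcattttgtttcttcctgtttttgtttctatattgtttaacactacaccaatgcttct
The motifs were the AW box, bound by the oil regulator WRI1, the RY element CATGCA, bound by B3 regulators of seed maturation, and the G box CACGTG, each on both strands. The RY match of ROD1 lies at bases -218 to -213, counted from the start. Windows of this length before all 27443 protein-coding genes held an RY element in 8.4%, an AW box in 9.3% and a G box in 6.5%. The windows of the other 4 genes held none of the 3 motifs. Those of LPCAT1 and AAPT1 overlap the neighbouring genes AT1G12650 and AT1G13570. The corresponding window of LPCAT2, which also rose, is chr1:23378356-23378605 on the minus strand, and that of AAPT2, which fell most, is chr3:9294925-9295174 on the plus strand.
LPCAT2: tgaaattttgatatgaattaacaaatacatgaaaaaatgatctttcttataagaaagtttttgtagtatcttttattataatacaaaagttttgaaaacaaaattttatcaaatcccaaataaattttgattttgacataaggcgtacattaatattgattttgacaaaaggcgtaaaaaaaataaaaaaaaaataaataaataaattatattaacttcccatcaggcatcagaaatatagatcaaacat
AAPT2: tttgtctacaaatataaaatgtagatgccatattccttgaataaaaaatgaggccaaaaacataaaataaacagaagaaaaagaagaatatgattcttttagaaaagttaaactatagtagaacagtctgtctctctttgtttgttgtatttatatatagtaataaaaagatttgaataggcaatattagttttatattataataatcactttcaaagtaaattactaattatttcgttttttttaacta

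LPCAT1, at chr1:4303280-4305907 on the minus strand, is the more abundant copy of its pair in both kinds of seed. It had 1277, 1118 and 1055 counts in the non-green libraries, against 1493, 1534 and 1592 in the green ones. Every non-green library lay below every green one, and non-green replicate 1 was the closest to them. LPCAT1 fell to 67.2 ± 5.64 CPM in non-green seeds, against 95.2 ± 2.68 CPM in green seeds (SD, n = 3 each). The log2 fold change was -0.50 ± 0.05 (SE, edgeR adjusted p = 1.86e-13), with a 95% interval of -0.61 to -0.40. In the RefSeq models, the gene AT1G12650 overlaps LPCAT1 by 117 bases on the opposite strand, and the use of strand in counting is not given. RPKM implied a counted length of 1795 bases for LPCAT1, against 1936 in its longest RefSeq transcript, so the counted overlap may differ. AT1G12650 itself fell by 0.42 ± 0.12 on the log2 scale (SE, edgeR adjusted p = 0.00439), and lost that call without non-green replicate 3 (edgeR adjusted p = 0.0516). The part of such reads in the LPCAT1 value was not tested.

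LPCAT2, at chr1:23375877-23378355 on the minus strand, moved the other way. It had 458, 560 and 461 counts in the non-green libraries, against 264, 300 and 301 in the green ones. The groups did not overlap, and non-green replicate 2 was the highest. LPCAT2 rose to 28.8 ± 3.36 CPM in non-green seeds, against 17.8 ± 1.34 CPM in green seeds (SD, n = 3 each), or 1.62-fold. The log2 fold change was 0.69 ± 0.09 (SE, edgeR adjusted p = 5.58e-10), with a 95% interval of 0.52 to 0.87.

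The balance of the LPCAT pair therefore lay further towards LPCAT2 in non-green seeds. LPCAT2 took 27.6, 34.8 and 31.7% of the summed RPKM of both copies in the non-green libraries, against 15.8, 17.2 and 16.7% in the green ones. The lowest non-green share lay well above the highest green one. The log2 ratio of LPCAT2 to LPCAT1 counts, which is free of library scaling, averaged -1.22 ± 0.24 in non-green and -2.42 ± 0.07 in green seeds (SD, n = 3 each), a difference of 1.19. The exact permutation test gave a two-sided p of 0.1, the smallest that 3 libraries against 3 allow. The summed level of both copies was 55.9 ± 3.67 RPKM in non-green and 61.9 ± 1.79 RPKM in green seeds (SD, n = 3). The sums of the groups did not overlap, with 51.8 to 58.7 RPKM in non-green and 60.1 to 63.7 RPKM in green libraries.

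AAPT2, at chr3:9295175-9298746 on the plus strand, was the most abundant of the 5 genes in green seeds. It had 1309, 1387 and 1189 counts in the non-green libraries, against 1861, 1782 and 1813 in the green ones. The groups lay far apart, with the highest non-green library below the lowest green one. AAPT2 fell to 75.7 ± 5.07 CPM in non-green seeds, against 112 ± 2.17 CPM in green seeds (SD, n = 3 each). The log2 fold change was -0.57 ± 0.05 (SE, edgeR adjusted p = 3.53e-17), with a 95% interval of -0.67 to -0.47. Among the 2149 genes called lower, 479 (22.3%) fell more.

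AAPT1, at chr1:4638468-4642190 on the minus strand, is the less abundant copy. It had 428, 451 and 410 counts in the non-green libraries, against 432, 428 and 442 in the green ones. These values overlapped, and AAPT1 averaged 25.1 ± 1.03 CPM in non-green and 26.8 ± 0.173 CPM in green seeds (SD, n = 3 each). The log2 fold change of -0.09 ± 0.08 (SE, edgeR adjusted p = 0.440) did not pass, and its 95% interval of -0.26 to 0.07 leaves room for a small change either way. In the RefSeq models, AT1G13570 overlaps AAPT1 by 67 bases on the same strand. AT1G13570 had 44.2 ± 2.22 CPM in non-green and 37.9 ± 0.922 CPM in green seeds (SD, n = 3), or 0.22 ± 0.07 more on the log2 scale (SE, edgeR adjusted p = 0.00617). That call was lost without non-green replicate 3 (edgeR adjusted p = 0.0713), and the part of shared reads in AAPT1 was not tested.

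Within the AAPT pair, AAPT2 took 72.8, 72.9 and 71.7% of the summed RPKM in the non-green libraries, against 79.0, 78.4 and 78.2% in the green ones. AAPT2 thus stayed the major copy in every library, with a lower share in all 3 non-green ones. The log2 ratio of AAPT2 to AAPT1 counts averaged 1.59 ± 0.05 in non-green and 2.07 ± 0.04 in green seeds (SD, n = 3 each), a difference of -0.48 (exact permutation, two-sided p = 0.1, again the smallest possible). The summed level of both copies was 56.2 ± 3.84 RPKM in non-green and 73.1 ± 1.85 RPKM in green seeds (SD, n = 3).

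**Figure D2:**
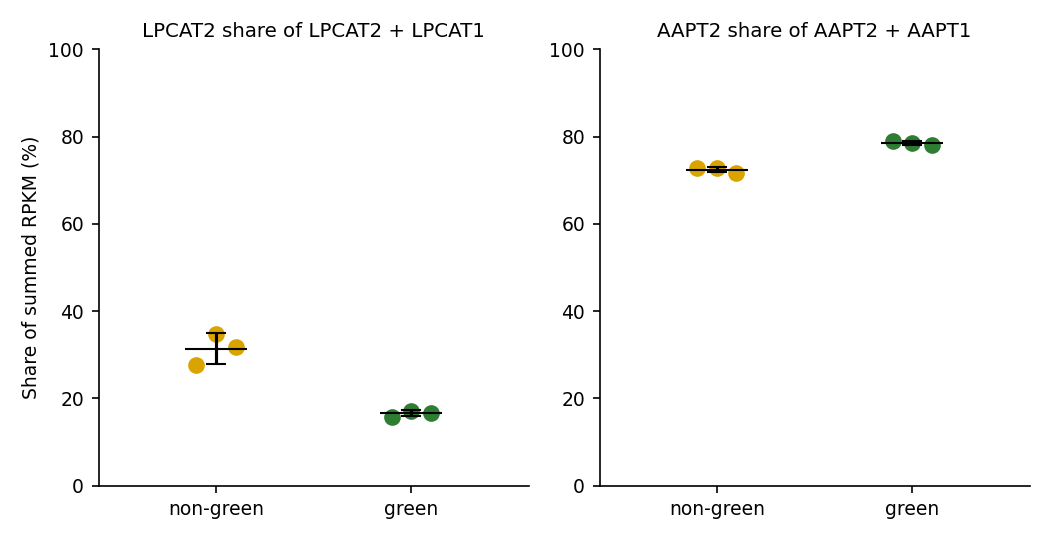
Share of LPCAT2 in the summed RPKM of LPCAT2 and LPCAT1 (left) and of AAPT2 in that of AAPT2 and AAPT1 (right), in percent; points are libraries, bars the mean and SD over 3 libraries. LPCAT2 takes 27.6 to 34.8% in non-green and 15.8 to 17.2% in green libraries, and AAPT2 takes 71.7 to 72.9% in non-green and 78.2 to 79.0% in green libraries.

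The counts of the non-green and green libraries did not overlap for 4 of the 5 genes, as they did not for 37% of all genes tested. The authors' deposited table lists log2 fold changes of 0.94 for ROD1, -0.50 for LPCAT1, 0.66 for LPCAT2, -0.10 for AAPT1 and -0.57 for AAPT2, the last with an adjusted p of 8.44e-27. Every alternative setting tried left the same 4 genes called with the same signs, and AAPT1 uncalled.

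**Figure D3:**
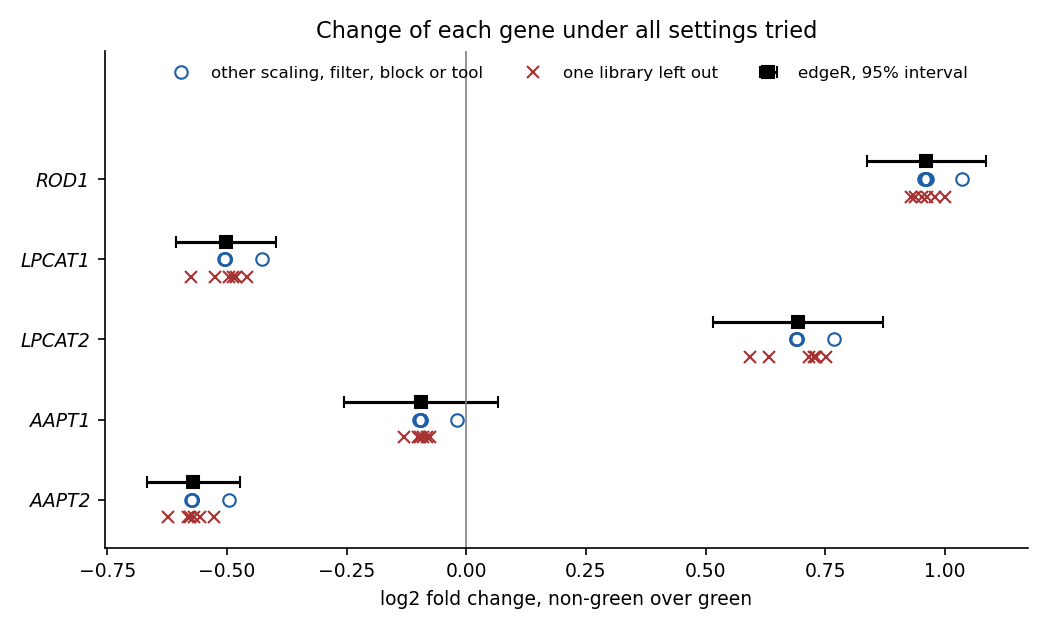
Log2 fold change of non-green over green seeds for each gene: squares show the edgeR estimate with its 95% interval, circles the other scaling, filter, block and tools, crosses the fits that leave out 1 library. All estimates of ROD1 and LPCAT2 lie right of 0 and all those of LPCAT1, AAPT1 and AAPT2 left of it, and the 95% interval of AAPT1, -0.26 to 0.07, crosses 0.

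As a check of the labels, chlorophyll synthase (CHLG, AT3G51820) had 11, 6 and 9 counts in the non-green libraries, against 46, 50 and 65 in the green ones. The seed markers OLEO1, CRU3, FUS3, ABI3 and EM1 were all detected in every library, and summed to 170778 to 175227 CPM (unadjusted for TMM) in non-green and 186604 to 189371 in green libraries. That sum is mostly CRU3, a storage protein gene, which fell (-0.23 ± 0.02, edgeR adjusted p = 6.75e-17). FUS3 rose (0.29 ± 0.05, edgeR adjusted p = 2.36e-07), as did OLEO1 (0.07 ± 0.03, edgeR adjusted p = 0.020). The OLEO1 call was lost with DESeq2 (0.0550) and when non-green replicate 2 (0.0597) or 3 (0.176) or green replicate 1 (0.0622) or 3 (0.170) was left out. ABI3 and EM1 were not called (0.04 ± 0.04 and 0.02 ± 0.03), but passed with scaling by total counts (0.00842 and 0.0221). Genes listed as markers of other tissues of the seed and fruit were also counted. The 6 seed coat markers summed to 629 to 644 CPM (unadjusted for TMM) in non-green and 815 to 887 in green libraries, and 3 of the 5 tested fell, among them GL2 at -0.89 ± 0.05 and TT10 at -0.44 ± 0.04 on the log2 scale (edgeR adjusted p = 5.46e-26 and 6.37e-19). The 4 endosperm markers summed to 3.61 to 4.45 in non-green and 6.58 to 9.30 in green libraries, and 2 of the 3 tested fell, MEA at -1.26 ± 0.23 and ALE1 at -1.92 ± 0.49 (edgeR adjusted p = 4.49e-06 and 0.00142). Both rest on few reads. MEA had 39, 37 and 35 counts in the non-green libraries, against 79, 103 and 69 in the green ones. ALE1 had 3, 10 and 4 counts, against 16, 24 and 22. The endosperm marker ZOU was tested but not called (-0.06 ± 0.37, edgeR adjusted p = 0.929). The 5 silique wall markers summed to 80.9 to 96.7 in non-green and 73.4 to 78.7 in green libraries, and 2 of the 4 tested rose, FIL and YAB3, both at 0.22 on the log2 scale (edgeR adjusted p = 0.0142 and 0.0341). The silique wall markers SHP1 and SHP2 were not called (-0.30 ± 0.12 and 0.04 ± 0.15, edgeR adjusted p = 0.0583 and 0.874). FIL and YAB3 both lost their call with DESeq2 (0.0688 and 0.101). The FIL call was also lost without non-green replicate 1 (0.0622) or 3 (0.226), and the YAB3 call when non-green replicate 2 (0.0834) or 3 (0.118) or green replicate 1 (0.286) was omitted. The defining markers TT12, FIS2 and IND stayed under 10 counts in every library, and IND was at 0 in all non-green ones. In whole seeds, fewer cells of a type and less RNA per cell cannot be told apart. The part of these tissues in the values of the 5 genes was not tested.

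Head-group supply feeds the AAPT step. Choline and ethanolamine kinases and CTP-dependent transferases activate the head group, and methyltransferases turn phosphoethanolamine into phosphocholine. Of 12 listed genes 9 were tested, of which 1 rose, 3 fell and 5 were not called, where 14.2% of all genes tested rose and 12.5% fell. The median log2 fold change was -0.14, beside 0.00 for all genes tested. CEK4, a kinase of choline and ethanolamine, fell by 0.69 ± 0.13 on the log2 scale (edgeR adjusted p = 5.60e-06). It had 6.25 ± 0.944 RPKM in non-green and 9.55 ± 0.461 RPKM in green seeds (SD, n = 3). PECT1, the CTP-dependent transferase of the ethanolamine branch, had 21.8 ± 1.70 RPKM in non-green and 24.8 ± 0.917 RPKM in green seeds (log2 fold change -0.26 ± 0.07, edgeR adjusted p = 0.00163).

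The remaining calls of this list were weaker. The kinase gene CEK2 was higher by 0.27 ± 0.09 on the log2 scale (edgeR adjusted p = 0.0162), a call lost with DESeq2 (0.0558), without non-green replicate 3 (0.0716) and without green replicate 1 (0.176). The choline kinase gene CK1, at -0.35 ± 0.12 (edgeR adjusted p = 0.0166), lost its call with DESeq2 (0.0511), with scaling by total counts (0.0748) and without non-green replicate 1 (0.0567) or 3 (0.145) or green replicate 3 (0.0929). The genes CCT1 and CCT2, which make CDP-choline, were not called (-0.14 ± 0.09 and -0.23 ± 0.29, edgeR adjusted p = 0.268 and 0.620). The phosphoethanolamine methyltransferase genes PMT1, PMT2 and PMT3 are listed at 0 in all 6 libraries. How the counting treated these genes is not given, so a listed 0 does not show that their transcripts were absent.

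Acyl supply and modification on either side of the LPCAT and ROD1 steps were described by 13 genes, all tested, of which 6 rose, 3 fell and 4 were not called, beside 14.2% of all genes tested that rose and 12.5% that fell. Their median log2 fold change was 0.20, against 0.00 for all genes tested. FAD2, which desaturates oleate on PC, had 911 ± 13.7 RPKM in non-green and 693 ± 5.56 RPKM in green seeds (SD, n = 3). Its log2 fold change, fitted with TMM factors that RPKM lacks, was 0.32 ± 0.03 (edgeR adjusted p = 4.98e-14). With scaling by total counts it was 0.39. FAD3, the next desaturase, had 839 ± 11.5 RPKM in non-green and 481 ± 16.2 RPKM in green seeds (0.73 ± 0.03, edgeR adjusted p = 8.37e-33). Neither gene's libraries overlapped between groups.

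The other rises of this list were those of FAE1, an elongase of oleoyl-CoA (0.59 ± 0.04, edgeR adjusted p = 3.15e-24), LACS4, an acyl-CoA synthetase (0.41 ± 0.04, 1.12e-13), CBR1, the reductase of cytochrome b5 (0.28 ± 0.06, 0.000103), and ACBP6, an acyl-CoA-binding protein (0.22 ± 0.07, edgeR adjusted p = 0.00764). The ACBP6 call was lost when non-green replicate 2 (0.0856) or 3 (0.0636) or green replicate 1 (0.0972) was left out. The acyl-CoA synthetases LACS1 and LACS2, known from cuticle lipid synthesis, fell by 0.49 ± 0.05 and 0.36 ± 0.06 on the log2 scale (edgeR adjusted p = 5.53e-15 and 5.06e-07). LACS8, at -0.18 ± 0.06 (edgeR adjusted p = 0.0322), lost its call with DESeq2 (0.0924), with scaling by total counts (0.283) and without non-green replicate 1 (0.134) or 3 (0.112) or green replicate 1 (0.307) or 3 (0.0634).

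The acyltransferases and phosphatases that make diacylglycerol and triacylglycerol formed the next list. All 11 listed genes were tested, of which 2 rose, 0 fell and 9 were not called, where 26.6% of all genes tested were called. The median log2 fold change was 0.04, beside 0.00 for all genes tested. DGAT2, a diacylglycerol acyltransferase, had 24.4 ± 1.43 RPKM in non-green and 14.7 ± 0.850 RPKM in green seeds (0.65 ± 0.08, edgeR adjusted p = 3.01e-10). PDAT2, a relative of the enzyme that takes an acyl chain from PC to make triacylglycerol, had 15.9 ± 1.20 RPKM in non-green and 11.3 ± 1.05 RPKM in green seeds (0.42 ± 0.08, edgeR adjusted p = 2.94e-05). DGAT1, an acyl-CoA-dependent diacylglycerol acyltransferase, and PDAT1, the PC-dependent enzyme, were not called (0.04 ± 0.05 and -0.09 ± 0.16). PAH1, a phosphatidate phosphatase, was not called either (-0.12 ± 0.05, edgeR adjusted p = 0.0879), but passed without non-green replicate 1 (0.0353).

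Phospholipases that cleave PC were the last group, with 10 genes tested, 1 of them higher, 3 lower and 6 not called, where 26.6% of all genes tested were called. Their median log2 fold change was -0.14, and that of all genes tested 0.00. NPC4, a phospholipase C, had 28.7 ± 0.921 RPKM in non-green and 37.7 ± 2.52 RPKM in green seeds (-0.47 ± 0.06, edgeR adjusted p = 3.30e-11). Its relative NPC6 rose, with 6.05 ± 0.837 RPKM in non-green and 3.75 ± 0.754 RPKM in green seeds (0.61 ± 0.14, edgeR adjusted p = 0.000422). PLDZETA2 and PLDALPHA1, phospholipases D, had log2 fold changes of -0.25 ± 0.07 and -0.16 ± 0.05 (edgeR adjusted p = 0.00292 and 0.00587). Both lost the call with scaling by total counts (0.0568 and 0.179) and without green replicate 3 (0.0777 and 0.0773), and PLDALPHA1 also without non-green replicate 1 (0.103).

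**Figure D4:**
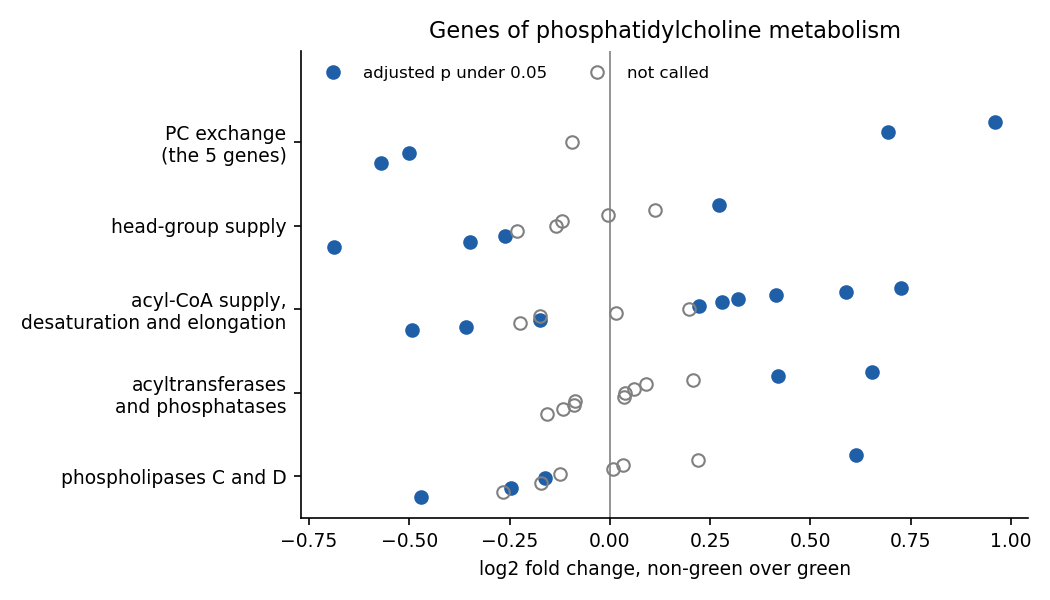
Log2 fold change of non-green over green seeds for the tested genes of each list, 1 point a gene; filled points passed edgeR's adjusted p of 0.05 and open points did not. The 5 exchange genes run from -0.57 to 0.96, the acyltransferases and phosphatases from -0.16 to 0.65, with 9 of 11 open.

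For each called gene, the genes with the most similar pattern were sought among the 8837 genes with a mean of at least 10 CPM, by the root mean square difference of log2 CPM over the 6 libraries after centring each gene on its mean. For ROD1 these were SRO5, ERF4 and AAH, with differences of 0.02, 0.03 and 0.04. For LPCAT2 they were AT5G56530, AT1G80180 and AT5G53420 (0.03, 0.05 and 0.06). For LPCAT1 they were MAP18, AT3G21710 and AT3G51000 (0.03, 0.04 and 0.04), and for AAPT2 they were the sugar transporter gene SWEET7, AT2G05910 and AGT3 (0.03, 0.03 and 0.04). These distances are descriptions over 6 libraries, with no test.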

How the data were processed

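RNA was sequenced from 3 non-green and 3 green seed libraries, with total counts of 16438639 to 16745514. The authors deposited whole-number counts and RPKM per gene. The deposited table also holds the authors' own comparison, with a mean signal, log2 fold changes, a score and p-values, whose settings are not stated. The submitters' processing notes name Bowtie 0.12.2 and TAIR10, and the counting program is not given. Because Bowtie of that generation makes no gapped alignments, reads that span exon joins may be missing if the target was the genome. With transcript sequences as the target, such reads could be aligned. In 29216 values checked, RPKM equalled count over library total over a whole-number gene length, within 0.05 bases. RPKM thus lacks the TMM factors of the log2 fold changes, and ratios of RPKM means differ from them.

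Counts were analysed in R 4.3.3 with edgeR 4.0.16 (filterByExpr, TMM factors, quasi-likelihood test, group as the only term, Benjamini-Hochberg adjustment over all 17239 genes tested, two-sided). SE is the absolute log2 fold change divided by the root of F. Common biological variation was 5.68%. Scripts were tested on simulated data. Alternatives were DESeq2 1.42.0, limma-voom (limma 3.58.1), total-count scaling, no filter, a replicate block and each library left out. Log2 ratios of pairs used counts plus 0.5. The genes and lists were chosen with earlier results of these data known. From each list, the rule named up to 3 genes, by adjusted p, and the first called one in the minority direction; other list and marker genes, and the overlapping genes, were named after their values were seen. Coordinates and sequences are from RefSeq's TAIR10.1 (Biopython 1.88). RPKM implied lengths of 1207, 1795, 1688, 1666 and 1908 bases for ROD1, LPCAT1, LPCAT2, AAPT1 and AAPT2. Their longest RefSeq transcripts have 1488, 1936, 1759, 1780 and 2013 bases. The gene models counted may thus differ from those printed, also in starts, exons and overlaps. The files hold no coordinates of their own.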

Additional observations from a re-analysis of the deposited data

How the results depend on the processing

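ROD1, LPCAT1, LPCAT2, AAPT1 and AAPT2 kept their direction and their side of the threshold under all 11 alternatives, with log2 fold changes of 0.93 to 1.04, -0.57 to -0.43, 0.59 to 0.77, -0.13 to -0.02 and -0.62 to -0.50. Scaling by total counts moved the median of all genes to 0.08 on the log2 scale. All genes called numbered 3673 (DESeq2) to 4643, and 3968 to 4150 with 1 library left out. The head-group list fell to 2 calls with DESeq2, and to 2 to 4 with 1 library left out. The phospholipase list fell to 2 calls with scaling by total counts, and to 2 to 4 with 1 library left out. The cause was not tested. Of 550 values for 50 genes outside the 5, 511 kept their side of the threshold. Direction was not always kept: log2 fold changes ran from -0.0022 to 0.09 for EM1, -0.50 to 0.09 for CCT2 and -0.17 to 0.06 for PDAT1.

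Deviations of same-numbered libraries correlated at -0.0014 to 0.0133. Non-green replicates 1 and 2 correlated best with their own number, at 0.0133 and 0.00385, and non-green replicate 3 did not. Correlations this small cannot decide whether a number marks a shared batch. With the replicate block 4643 genes were called, and the log2 fold changes were 0.96 for ROD1, -0.50 for LPCAT1, 0.69 for LPCAT2, -0.10 for AAPT1 and -0.57 for AAPT2. Within numbers, the log2 ratio of LPCAT2 to LPCAT1 differed by 1.19 and that of AAPT2 to AAPT1 by -0.48 (exact permutation p = 0.25, the smallest for 3 pairs). With 1 library left out they differed by 1.08 to 1.32 and -0.49 to -0.45.

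Depth limits the low genes most: CCT2, PDAT1 and NPC2 averaged under 3 RPKM, and their intervals are wide.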
